A study of Homo sapiens with 9 samples.

Results

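The genes described here encode heat shock proteins, the transcription factors and co-chaperones that serve them, and the subunits of the ring-shaped chaperonin TRiC. They were listed by gene symbol as 45 genes, and a gene was measured when at least 1 of its probes had a detection score above 0.95 on 3 or more of the 9 arrays. The detection score belongs to each probe and array and rises with the probe's signal. Of the 45 genes, 41 were measured through 57 of 67 probes, among 10919 genes and 18102 of 48803 probes measured in the whole series. RNA came from THP-1, a cell line grown from a human leukaemia of the monocytic lineage, and was hybridised to Illumina bead arrays. Cells had been replated (3 arrays), frozen (3 arrays) or were fresh (3 arrays), with no other treatment named. The series is about RNA from liquid nitrogen stocks, and the comparison with fresh cells asks how far a stock or its replated culture keeps the levels of fresh cells. The labels give neither how long cells were frozen nor how long they grew after replating, and no medium, passage or freezing agent. The design text calls the arrays of a state biological replicates without saying what separated them, so p-values measure the spread between these arrays.

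Cells answer misfolded proteins by the heat shock response. The transcription factor HSF1, kept idle by chaperones, is released, forms trimers and binds runs of inverted GAA units in front of chaperone genes. The proteins made in this way pass clients along: J proteins bring unfolded chains to HSP70, nucleotide exchange factors of the HSP110 and BAG families make HSP70 let go, STIP1 hands some clients to HSP90, and TRiC encloses actin and tubulin while they fold. The name "cytosolic" does not hold for every gene of the list. HSPA9, TRAP1, HSPD1, HSPE1 and DNAJA3 act in mitochondria, HSPA13 belongs to the endoplasmic reticulum, and HSPB11, listed under its older symbol and now called IFT25, is an intraflagellar transport protein.

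Promoter sequences were searched for exact letters of the HSF1 element. In RefSeq's promoter table (build GRCh38.p14, 250 bases before to 50 bases after each gene start), 40 of the 45 genes had 58 promoters, and HSF1, STUB1, CCT6A, HSPA14 and FKBP4 had none there. A run of 3 alternating units, GAA and TTC in turn with 2 bases between neighbours, was searched on both strands, and overlapping runs were allowed. It was found in 7 of the 58 promoters (12.1%), against 172 of all 35116 promoters (0.49%). The 7 genes were CHORDC1, DNAJA1, DNAJB6, HSP90AA1, HSP90AB1, HSPA8 and HSPD1. Windows of 60 bases around these runs are printed 5′ to 3′ on the strand of the gene, with the joined run of units in capitals, for the genes whose run lies in front of the start:
HSPA8, chr11:123062327-123062386, minus strand: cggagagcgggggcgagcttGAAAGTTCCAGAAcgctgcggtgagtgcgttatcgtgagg
HSPA8, chr11:123062156-123062215, minus strand: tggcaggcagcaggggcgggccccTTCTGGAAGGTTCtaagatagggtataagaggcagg
HSP90AA1, chr14:102087097-102087156, minus strand: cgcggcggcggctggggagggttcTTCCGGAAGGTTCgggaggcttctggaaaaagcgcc
HSP90AB1, chr6:44247754-44247813, plus strand: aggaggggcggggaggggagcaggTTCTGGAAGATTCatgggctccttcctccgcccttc
HSP90AB1, chr6:44247807-44247866, plus strand: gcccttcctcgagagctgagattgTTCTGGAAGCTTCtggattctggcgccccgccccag
HSPD1, chr2:197500031-197500090, minus strand: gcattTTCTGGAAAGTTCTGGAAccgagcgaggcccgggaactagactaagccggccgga
DNAJB6, chr7:157336849-157336908, plus strand: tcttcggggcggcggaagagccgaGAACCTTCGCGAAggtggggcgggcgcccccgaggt
CHORDC1, chr11:90223069-90223128, minus strand: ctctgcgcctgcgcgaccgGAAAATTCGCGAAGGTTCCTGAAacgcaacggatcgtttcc

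The capitals of HSPD1 and CHORDC1 are longer than those of the other genes because their units go on without a break, over 18 bases in HSPD1 and 23 bases in CHORDC1, against 13 bases in each of the others. A pair of units (GAANNTTC or TTCNNGAA) was in 19 of the 58 promoters (32.8%), against 13.5% of all promoters. The letters CCAAT were in 29.3% of these promoters and 34.6% of all, and TATAAA in 8.62% and 11.5%. HSPA1B and DNAJB1, chaperone genes known for their heat induction, had 2-unit matches and no 3-unit run in these windows. These matches describe letters in a window and were not measured as binding. Inexact units and elements outside the window were not searched, so a gene without a match may still carry the element.

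Most markers of THP-1 were detected. Of 12 markers of the line, 10 had a named probe and 9 were detected, among them CD14, LYZ, MPO, CSF1R, SPI1 and CEBPA, and MEIS1 was detected on 0 of 9 arrays. Their summed signal on the linear scale was 12402 to 12585 on replated arrays, 10319 to 10916 on frozen arrays and 10571 to 11142 on fresh arrays, and LYZ, the gene of lysozyme, rose by 0.85 (log2) in replated against fresh cells (limma adjusted p = 6.99e-05). Of the 9 markers, 1 was called in replated against fresh cells, against 4.13% of all probes. In replated against frozen cells 2 were called, both higher, against 6.25% of all probes called higher. The largest difference of a marker there was 0.86. Of 9 markers of other cell types, 8 had a named probe, and CD3E, EPCAM, COL1A1, HBB and KRT18 were detected on 0 of 9 arrays. CD79A, NCAM1 and PECAM1 were detected, with a summed signal of 1228 to 1409 on replated arrays, 1038 to 1180.3 on frozen arrays and 1191 to 1232 on fresh arrays. Of these 3, 1 was called, PECAM1, which monocytes also express. It was higher in replated than in frozen cells by 0.26 on the log2 scale (limma adjusted p = 0.0496), where 6.25% of all probes were called higher. The part of either marker list in the results was not tested. Arrays detected 16898 to 17679 probes each, with a mean signal of 299.6 to 367.1. With 3 arrays a state, their number limits the precision of every difference.

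The heat shock and chaperonin genes were bright in all 3 states. All 57 probes were detected on 9 of 9 arrays, with a lowest detection score of 0.984, and the median of these probes on an array lay between 10.17 and 10.32 on the normalized log2 scale, against 7.06 for all 18102 probes, although probes differ in affinity and their levels do not rank genes. Levels are log2 of background-corrected and quantile-normalized signal, and a probe was called, and is said to have risen or fallen, where the adjusted p of limma's linear model was under 0.05. Each gene is given by its brightest probe unless another is named. The range over the 9 arrays had a median of 0.30 (log2) over the 41 genes, against 0.40 over all 10919 genes, and the spread within a state had a median SD of 0.0774, against 0.103. The genes and probes of the whole series, set beside these here and for the intervals below, were not matched to them for brightness. By brightest probe HSP90AB1 had the smallest range (0.156) and TCP1 the largest (0.645). Averaged over the 57 probes, the deviation of an array from the mean of all 9 arrays was -0.0437 to -0.0015 (log2) on replated arrays, -0.0251 to -0.0083 on frozen arrays and 0.019 to 0.0626 on fresh arrays. The other 4 listed genes gave no measured level. HSF2 and AHSA1 had no probe named for them in the platform annotation. The probe of HSPA1A was detected on 0 of 9 arrays (scores 0.183 to 0.826). For DNAJB4, 1 of 2 probes passed a score of 0.95 on 1 of 9 arrays (0.955), and the other on 0 of 9 (scores 0.254 to 0.901).

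In frozen cells no heat shock or chaperonin gene passed the test against fresh cells by its brightest probe. Of 41 genes 0 rose or fell, where 51 of all 10919 genes rose and 53 fell. Log2 differences ran between -0.38 (TCP1) and 0.17 (HSF1) with a median of -0.02. Over all 57 probes, 0 were called higher, against 0.486% of all probes. Called lower was 1, the dimmer of 2 CCT3 probes, against 0.53% of all probes. At an unadjusted p under 0.05, 14 of 57 probes (24.6%) differed, against 17.2% of all probes. The frozen arrays lay wholly above the fresh arrays at 8 probes (14%), against 11.6% of all probes, and wholly below them at 15 probes (26.3%), against 10.8% of all probes. The 95% interval of the difference stayed within 1.5-fold in either direction for 54 of 57 probes (94.7%), against 94.1% of all probes, which is the share of the array as a whole. By brightest probe it did so for 40 of 41 genes (97.6%), TCP1 being the exception, against 95% of all genes. It stayed within 1.3-fold for 45 of 57 probes (78.9%), against 68.5% of all probes. Under alternative settings the number of called probes ran from 1 to 8, all of them lower. The 8 of 57 came with a trended, robust prior, where 4.56% of all probes were called. With an offset of 50, 6 of 57 were called, against 2.99% of all probes. Fewer cells of a kind and less RNA per cell cannot be told apart in such bulk RNA.

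By brightest probe, 2 of 41 genes were called in replated against fresh cells, where 266 of all 10919 genes rose and 235 fell. The mitochondrial HSP70 gene HSPA9 and the ubiquitin ligase gene STUB1 fell, STUB1 at 1 of its 2 probes. The other 39 of 41 genes did not pass the test. Log2 differences ran between -0.34 (HSPA9) and 0.21 (HSPA13) with a median of -0.07. Over the 57 probes, 0 were higher, against 2.22% of all probes, and 2 were lower (3.51%), against 1.91% of all probes. At an unadjusted p under 0.05, 9 of 57 probes (15.8%) differed, against 20% of all probes. The replated arrays lay wholly above the fresh arrays at 1 probe (1.75%) and wholly below them at 17 probes (29.8%), against 12.8% of all probes in each direction. The interval stayed within 1.5-fold for 57 of 57 probes, against 94% of all probes, and within 1.3-fold for 46 of 57 (80.7%), against 66.4%. Under alternative settings the number of called probes ran from 0 to 5, all of them lower. The 5 of 57 came with the trended, robust prior, where 8.43% of all probes were called. The comparisons of frozen and of replated cells share the 3 fresh arrays.

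Against frozen cells, replated cells had a higher level of the TRiC subunit gene CCT5 and a lower level of STIP1, the adaptor between HSP70 and HSP90. The other 39 of 41 genes did not pass the test, where 721 of all 10919 genes rose and 601 fell. Log2 differences ran between -0.23 (STIP1) and 0.36 (CCT5) with a median of -0.04. Over the 57 probes, 2 were higher (3.51%), against 6.25% of all probes, and 1 was lower (1.75%), against 5.32% of all probes. At an unadjusted p under 0.05, 21 of 57 probes (36.8%) differed, against 28.9% of all probes. The replated arrays lay wholly above the frozen arrays at 7 probes (12.3%), against 16.4% of all probes, and wholly below them at 17 probes (29.8%), against 17.4% of all probes. The interval stayed within 1.5-fold for 55 of 57 probes (96.5%), against 90.1% of all probes, and within 1.3-fold for 49 of 57 (86%), against 58.5%. Under alternative settings the number of called probes ran from 1 to 19. The 19 of 57, 8 higher and 11 lower, came with the trended, robust prior, where 18% of all probes were called. A moderated F test over the 3 states called 3 of 57 probes (5.26%), against 9.63% of all probes. These were the probe of HSPA9, the brightest of STUB1 and the dimmer of CCT3.

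**Figure D1:**
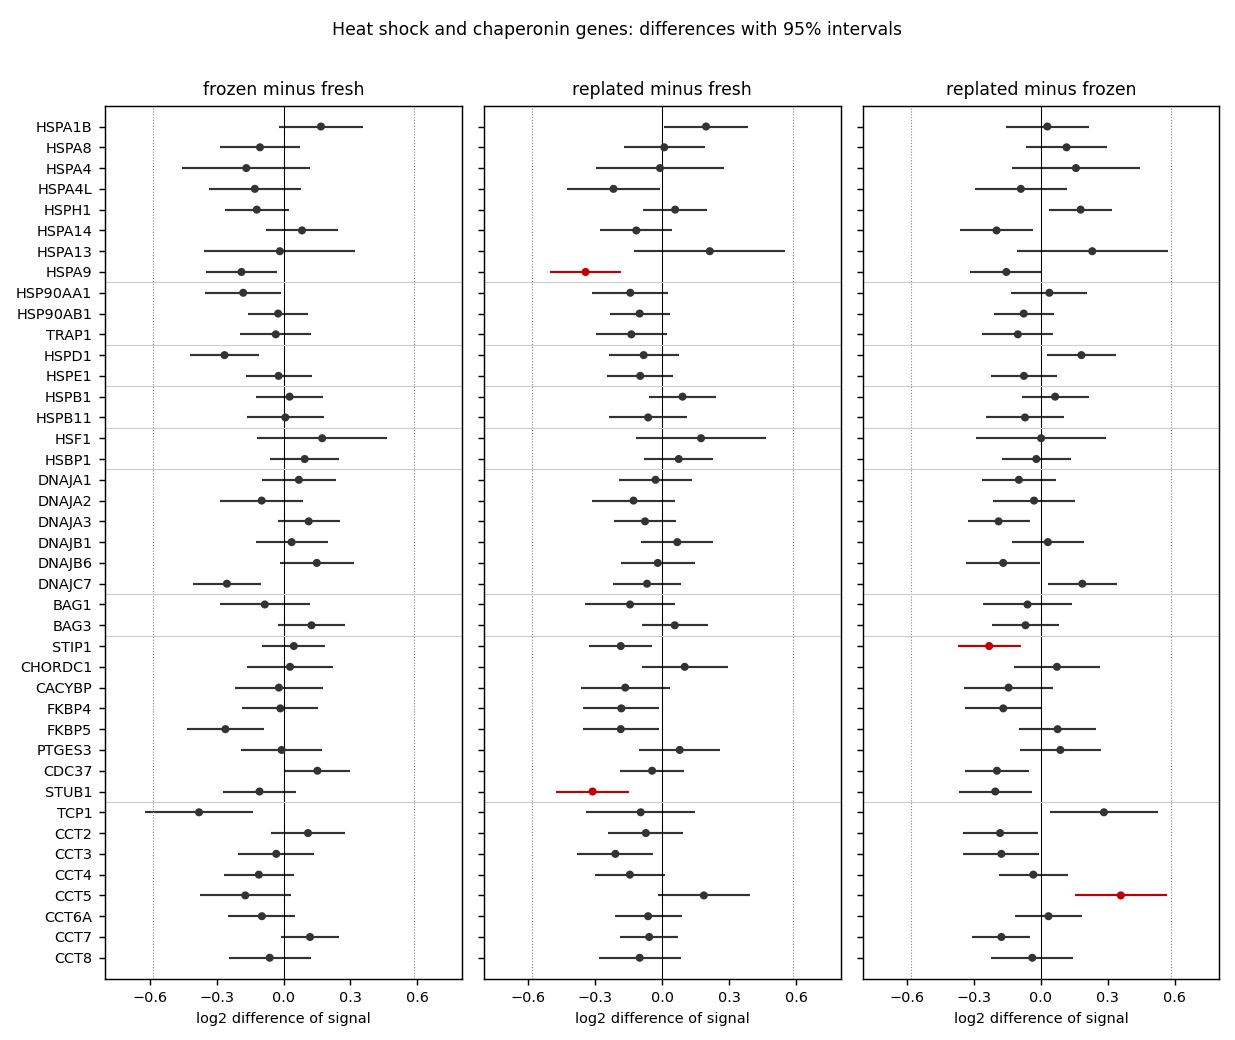
Log2 difference of signal (points) with its 95% interval (lines) for the 41 measured genes, grouped by role, in frozen minus fresh, replated minus fresh and replated minus frozen cells. Called genes are red (adjusted p under 0.05), dotted lines mark 1.5-fold, and an interval reaches 0.17 to either side in the median. Of all intervals shown, that of TCP1 in frozen minus fresh cells crosses a dotted line.

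HSF1, the factor that drives the response, had a log2 signal of 7.31, 7.10 and 7.48 on replated arrays, 7.43, 7.01 and 7.44 on frozen arrays and 7.14, 7.23 and 6.99 on fresh arrays. The states overlapped, and its second, dimmer probe had differences between -0.06 and 0.05. The brightest probe's differences from fresh cells were 0.17 ± 0.13 (SE) in both frozen and replated cells, with intervals from -0.12 to 0.46. HSBP1, whose product binds trimers of HSF1 and limits them, differed by 0.09 in frozen and 0.07 in replated against fresh cells and was not called.

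HSPA1B, the stress-inducible cytosolic HSP70 gene, had a log2 signal of 10.20, 10.18 and 10.08 on replated arrays, 10.17, 10.11 and 10.10 on frozen arrays and 9.93, 9.82 and 10.13 on fresh arrays. Fresh array 3 lay within the values of the other states, so no pair of states was separate. The difference was 0.17 ± 0.085 (SE) in frozen against fresh cells (limma adjusted p = 0.34) and 0.20 ± 0.085 in replated against fresh cells (limma adjusted p = 0.228), with intervals that reached up to 0.36 and 0.38. HSPA1A and HSPA1B are near-identical copies, and how their transcripts share these probes was not tested. HSPA8, the HSP70 made at all times, had a log2 signal of 13.84, 13.68 and 13.89 on replated arrays, 13.70, 13.75 and 13.62 on frozen arrays and 13.91, 13.74 and 13.73 on fresh arrays. All 3 states overlapped at this probe, and the promoter of HSPA8 is one of those with 2 separate runs of heat shock units. Its differences were -0.11 ± 0.082 in frozen against fresh cells, 0.01 ± 0.082 in replated against fresh cells and 0.11 ± 0.082 in replated against frozen cells.

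HSPH1, the main HSP110 exchange factor, had a log2 signal of 11.78, 11.70 and 11.71 on replated arrays, 11.59, 11.52 and 11.55 on frozen arrays and 11.62, 11.67 and 11.73 on fresh arrays. The frozen arrays lay below all others. The difference was -0.12 ± 0.064 (SE) in frozen against fresh cells and 0.18 ± 0.064 in replated against frozen cells (limma adjusted p = 0.099), and neither was called. Among the other HSP70 and HSP110 genes, HSPA4 and HSPA4L, also HSP110 exchange factors, differed by -0.17 and -0.13 in frozen against fresh cells and by -0.01 and -0.22 in replated against fresh cells. HSPA14, a ribosome-associated HSP70, differed by -0.20 in replated against frozen cells and HSPA13 by 0.23. None of these 4 was called in any comparison.

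HSPA9, the mitochondrial HSP70 that pulls proteins through the inner membrane, had a log2 signal of 11.78, 11.67 and 11.80 on replated arrays, 11.85, 11.90 and 11.96 on frozen arrays and 12.02, 12.19 and 12.07 on fresh arrays. The replated arrays were the lowest, the frozen arrays intermediate and the fresh arrays the highest, with no overlap between any 2 states. HSPA9 fell by 0.34 on the log2 scale in replated against fresh cells (SE 0.073, 1.27-fold, limma adjusted p = 0.03). The differences of -0.19 in frozen against fresh cells (limma adjusted p = 0.226) and -0.16 in replated against frozen cells (limma adjusted p = 0.187) were not called. The call was lost when any 1 of the 3 replated arrays or fresh array 2 or 3 was left out (adjusted p 0.0666 to 0.0988), while the difference stayed between -0.37 and -0.29.

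HSP90AA1, the inducible cytosolic HSP90 gene, had a log2 signal of 13.92, 13.74 and 13.96 on replated arrays, 13.82, 13.91 and 13.79 on frozen arrays and 14.07, 14.02 and 13.96 on fresh arrays. The frozen arrays lay below the fresh arrays and overlapped the replated arrays. The difference was -0.18 ± 0.077 (SE) in frozen against fresh cells (limma adjusted p = 0.268) and -0.14 ± 0.077 in replated against fresh cells. A second probe of HSP90AA1 gave -0.21 and -0.17, and neither probe was called. HSP90AB1, the HSP90 gene made at all times, had a log2 signal of 12.77, 12.78 and 12.80 on replated arrays, 12.85, 12.84 and 12.89 on frozen arrays and 12.85, 12.92 and 12.87 on fresh arrays. Its replated arrays lay below both other states by a small margin, and the difference from fresh cells was -0.10 ± 0.061 (limma adjusted p = 0.394). TRAP1, the HSP90 of mitochondria, differed by -0.14 in replated against fresh cells and was not called.

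STIP1, which binds HSP70 and HSP90 at once through its TPR domains, had a log2 signal of 10.54, 10.52 and 10.48 on replated arrays, 10.74, 10.73 and 10.77 on frozen arrays and 10.66, 10.66 and 10.78 on fresh arrays. The replated arrays lay below all others, and frozen and fresh arrays overlapped. STIP1 fell by 0.23 in replated against frozen cells (SE 0.064, 1.18-fold, limma adjusted p = 0.041), and its difference of -0.19 in replated against fresh cells was not called (limma adjusted p = 0.136). The call was lost without any 1 of the 3 frozen or the 3 replated arrays, and without fresh array 2 (adjusted p 0.0548 to 0.123).

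STUB1, also known as CHIP, is the ubiquitin ligase that marks clients of HSP70 and HSP90 for breakdown. Its brightest probe had a log2 signal of 9.32, 9.52 and 9.31 on replated arrays, 9.56, 9.56 and 9.64 on frozen arrays and 9.71, 9.66 and 9.71 on fresh arrays. The replated arrays lay below the frozen arrays and these below the fresh arrays, with the second replated array nearest to the others. STUB1 fell by 0.31 in replated against fresh cells (SE 0.074, 1.24-fold, limma adjusted p = 0.0429). Its second probe, of similar brightness, had a log2 signal of 9.22, 9.21 and 9.25 on replated arrays, 9.09, 9.12 and 9.17 on frozen arrays and 9.11, 9.32 and 9.16 on fresh arrays. There the states of replated and fresh cells overlapped, with a difference of 0.03 ± 0.072. At this second probe the replated arrays lay above the frozen arrays, by 0.10 (limma adjusted p = 0.404), whereas at the brightest they lay below them. The call of STUB1 thus rests on 1 of 2 probes. The call at the brightest probe held without the second replated array and was lost without any 1 of the other 8 arrays (adjusted p 0.0526 to 0.147).

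**Figure D2:**
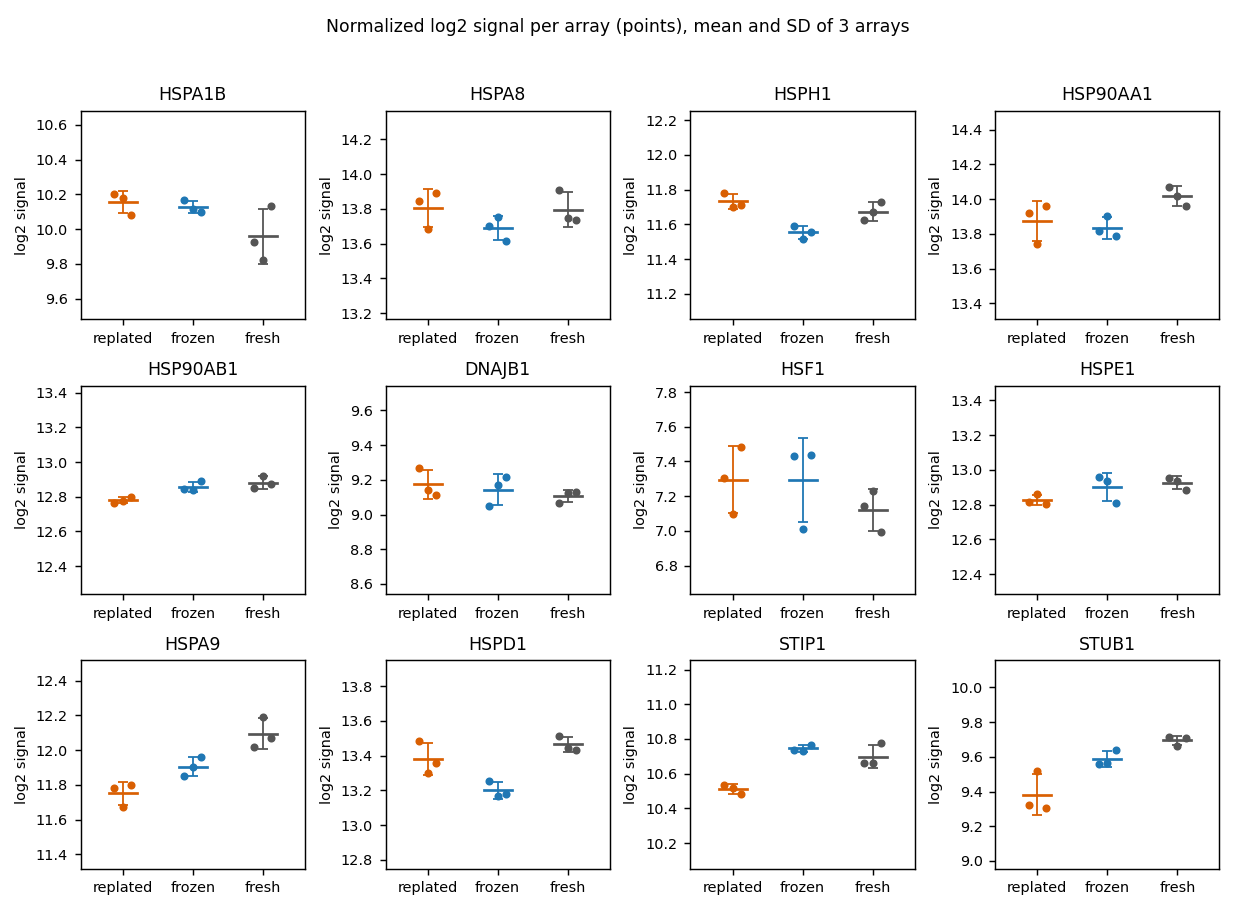
Normalized log2 signal on each array (points) with the mean and SD of 3 arrays, in replated, frozen and fresh cells, for 12 genes by brightest probe; every panel spans 1.2 log2 units. HSPA9 and STUB1 are lowest on replated, intermediate on frozen and highest on fresh arrays, STIP1 lies lower on replated arrays than on the others, and HSPA8, DNAJB1 and HSF1 overlap between states.

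The remaining HSP90 partners were not called in any comparison. FKBP5, an immunophilin known as a glucocorticoid target, had its frozen arrays below its fresh arrays, with a difference of -0.26 (limma adjusted p = 0.132), and differed by -0.19 in replated against fresh cells. FKBP4, its relative in steroid receptor complexes, differed by -0.18 in replated against fresh cells and by -0.01 in frozen against fresh cells. CDC37, which brings kinases to HSP90, differed by 0.15 in frozen against fresh cells and by -0.20 in replated against frozen cells (limma adjusted p = 0.075). CHORDC1, PTGES3 (the p23 co-chaperone) and CACYBP lay between -0.17 and 0.10 in the 3 comparisons. Over the 8 measured HSP90 partners the median was -0.01 in frozen against fresh cells and -0.17 in replated against fresh cells. In the second comparison 6 of 8 genes lay below 0, against 5498 of all 10919 genes.

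DNAJB1, the J protein partner of inducible HSP70, had a log2 signal of 9.27, 9.14 and 9.11 on replated arrays, 9.05, 9.17 and 9.21 on frozen arrays and 9.07, 9.12 and 9.13 on fresh arrays. All states overlapped, and the 3 differences were between 0.03 and 0.07 with intervals inside -0.13 and 0.23. DNAJC7, a J protein with TPR domains that binds HSP70 and HSP90, had its frozen arrays below all others, with differences of -0.25 in frozen against fresh cells (limma adjusted p = 0.109) and 0.19 in replated against frozen cells. DNAJB6, a J protein known for holding back aggregation, had 3 probes that differed by 0.15, 0.11 and 0.16 in frozen against fresh cells and by -0.17 each in replated against frozen cells. DNAJA3, of mitochondria, differed by -0.19 in replated against frozen cells (limma adjusted p = 0.0757). DNAJA1 and DNAJA2, general partners of HSPA8, lay between -0.13 and 0.07, and none of the 6 measured J proteins was called. The exchange factors BAG1 and BAG3, of which BAG3 works with HSP70 in selective autophagy, lay between -0.14 and 0.13. HSPB1, the small heat shock protein HSP27, differed by 0.03 in frozen and 0.09 in replated against fresh cells.

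HSPD1 and HSPE1 encode HSP60 and its lid HSP10, the folding chamber of mitochondria. The brightest probe of HSPD1 had a log2 signal of 13.49, 13.30 and 13.36 on replated arrays, 13.25, 13.17 and 13.18 on frozen arrays and 13.51, 13.45 and 13.44 on fresh arrays. The frozen arrays lay below all others, with a difference of -0.26 ± 0.071 (SE) from fresh cells (limma adjusted p = 0.104) and a difference of 0.18 ± 0.071 between replated and frozen cells. A second probe ordered the states otherwise: its replated arrays were the lowest, at -0.25 from fresh cells (limma adjusted p = 0.0523), and its frozen arrays were at -0.15. The remaining, dimmest probe differed by 0.11 in frozen against fresh cells and by -0.31 in replated against frozen cells. None of the 3 probes was called. Under the 20 alternative settings, the brightest was called lower in frozen against fresh cells in 3 (lowest limma adjusted p 0.0024) and higher in replated against frozen cells in 1. The second probe was called lower in replated against fresh cells in 6 (lowest limma adjusted p 0.00173). The dimmest was called lower in replated against frozen cells in 5 (lowest limma adjusted p 0.0218). HSPE1 had a log2 signal of 12.82, 12.86 and 12.80 on replated arrays, 12.96, 12.94 and 12.81 on frozen arrays and 12.95, 12.94 and 12.88 on fresh arrays. Its replated arrays lay below its fresh arrays, with a difference of -0.10 ± 0.067, and the frozen arrays overlapped both.

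TRiC is built from 8 kinds of subunit, and the genes of all 8 were measured, through 14 probes. CCT3, which encodes the gamma subunit, had 2 probes that behaved unlike each other. The dimmer probe had a log2 signal of 9.62, 9.59 and 9.59 on replated arrays and 8.97, 9.06 and 8.98 on frozen arrays. On fresh arrays it had 9.47, 9.43 and 9.54. The frozen arrays lay far below the others, which differed little between themselves. At this probe CCT3 fell by 0.47 in frozen against fresh cells (SE 0.064, 1.39-fold, limma adjusted p = 0.00822) and was higher by 0.59 in replated against frozen cells (SE 0.064, 1.51-fold, limma adjusted p = 0.000536). These were the lowest adjusted p-values of the whole list, and both differences were called under all 20 alternative settings. The bright probe of CCT3 had a log2 signal of 11.84, 11.85 and 11.64 on replated arrays, 11.92, 11.92 and 12.02 on frozen arrays and 11.97, 12.04 and 11.95 on fresh arrays. There frozen and fresh arrays overlapped, with a difference of -0.03 ± 0.077, and the replated arrays were the lowest, at -0.18 from frozen cells (limma adjusted p = 0.157). The call in frozen cells thus rests on 1 of 2 probes.

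CCT5, the epsilon subunit gene, had a log2 signal of 7.58, 7.56 and 7.34 on replated arrays, 7.25, 7.11 and 7.05 on frozen arrays and 7.18, 7.33 and 7.41 on fresh arrays. The replated arrays lay above the frozen arrays, and the fresh arrays overlapped both. CCT5 rose by 0.36 in replated against frozen cells (SE 0.093, 1.28-fold, limma adjusted p = 0.0332). The differences from fresh cells, -0.17 in frozen and 0.19 in replated cells, were not called. The call was lost without frozen array 2 or 3 or replated array 1 or 2 (adjusted p 0.0867 to 0.0987). CCT5 was measured by 1 probe.

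TCP1, the alpha subunit gene, had a log2 signal of 10.33, 10.02 and 10.31 on replated arrays, 9.99, 10.10 and 9.72 on frozen arrays and 10.32, 10.26 and 10.36 on fresh arrays. The frozen arrays lay below the fresh arrays and overlapped the replated ones. The difference in frozen against fresh cells was -0.38 ± 0.11 (SE, limma adjusted p = 0.127) with an interval from -0.62 to -0.13, and the other 2 probes gave -0.26 (limma adjusted p = 0.21) and -0.53 (limma adjusted p = 0.0782). All 3 probes of TCP1 were lower in frozen than in fresh cells by value, and none was called. In frozen against fresh cells the brightest was called lower under 3 of 20 alternative settings (lowest limma adjusted p 0.00779) and the other probes under 1 and 5. In replated against frozen cells the brightest was called higher under 3 and the probe at -0.53 under 2. Their differences in replated against frozen cells were 0.28, 0.11 and 0.33, and in replated against fresh cells -0.10, -0.14 and -0.20.

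CCT7, the eta subunit gene, had 3 probes that split. The brightest differed by 0.12 in frozen against fresh cells, and the dimmest by -0.28 (limma adjusted p = 0.0897, called lower under 4 of 20 alternative settings). The middle probe differed by -0.06. In replated against frozen cells the brightest differed by -0.18 (limma adjusted p = 0.0765), the middle by -0.06 and the dimmest by 0.21 (limma adjusted p = 0.0708). None of these was called, and the brightest was called lower there under 5 of 20 alternative settings and the dimmest higher under 4. CCT2, CCT4, CCT6A and CCT8 had differences between -0.11 and 0.11 in frozen against fresh cells and between -0.15 and -0.06 in replated against fresh cells by brightest probe. By brightest probe 6 of 8 TRiC genes lay below 0 in frozen against fresh cells, with a median of -0.08. In replated against fresh cells 7 of 8 did, with a median of -0.09. Of all 10919 genes, 5297 and 5498 lay below 0 in these comparisons. In frozen against fresh cells the sign depended on the probe for CCT7, and for CCT6A, at -0.10 by its brightest and 0.13 by its other probe.

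**Figure D3:**
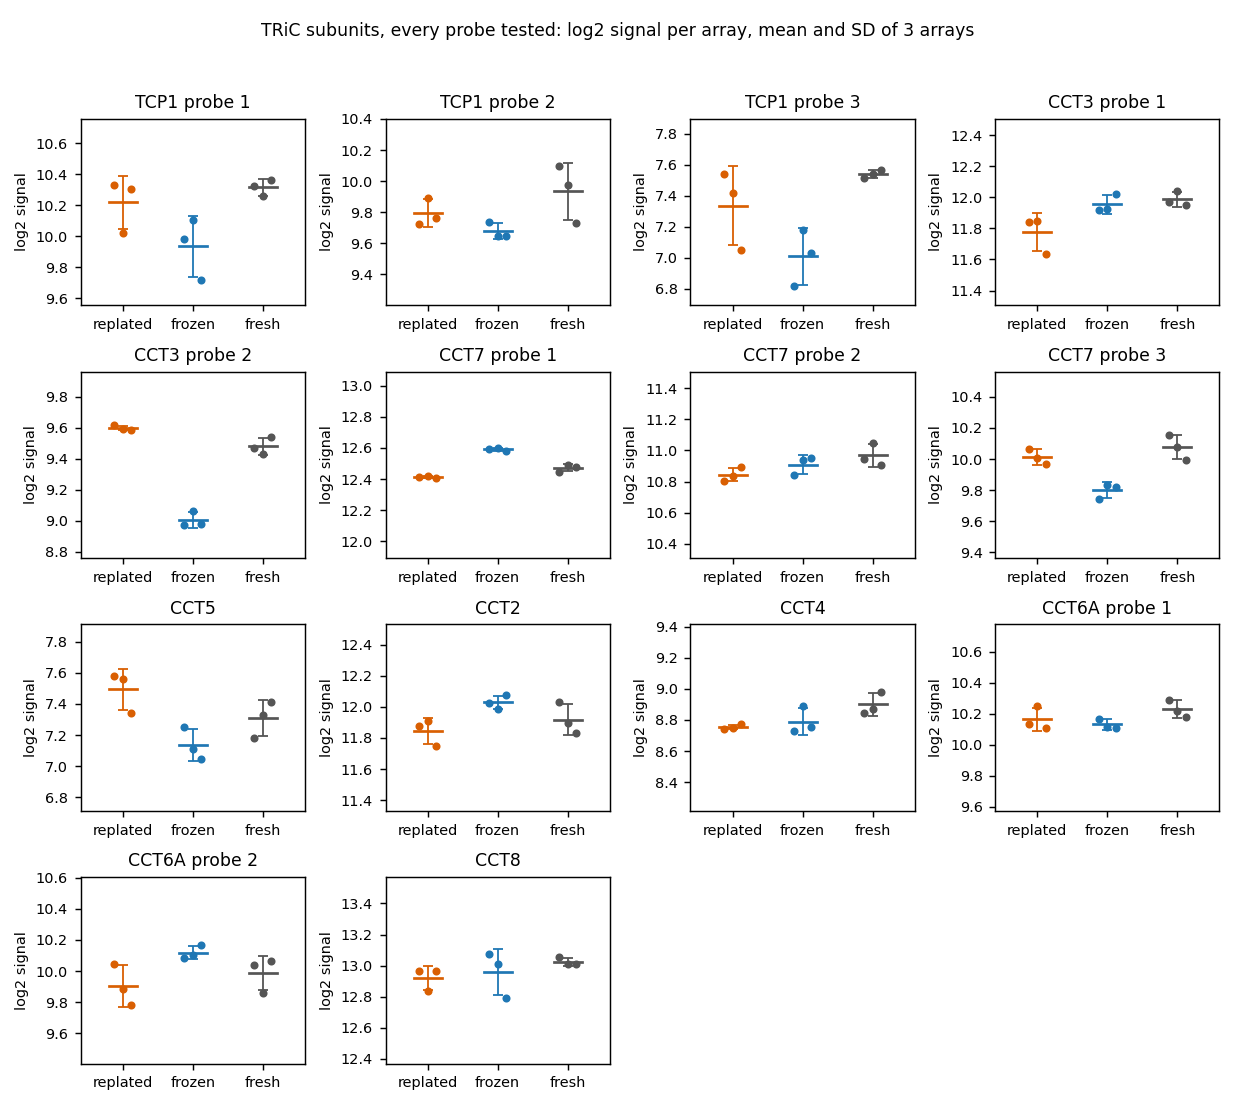
Log2 signal on each array (points) with the mean and SD of 3 arrays, in replated, frozen and fresh cells, for all 14 measured probes of the 8 TRiC genes; every panel spans 1.2 log2 units and probes are numbered from the brightest. CCT3 probe 2 and CCT7 probe 3 are low in frozen cells where probe 1 of the same gene is not, while all 3 TCP1 probes have their lowest mean in frozen cells.

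Probes of 1 gene were set against each other on the same arrays, as the brightest minus the dimmest, for the 12 genes with more than 1 measured probe. This difference did not overlap between frozen and fresh arrays for 4 of 12 genes (33.3%), against 22.1% of the 2702 genes of the series with several probes. It did not overlap between replated and fresh arrays for 3 of 12 (25%), against 15.1%, and between replated and frozen arrays for 6 of 12 (50%), against 27.3%. CCT3 had the widest gap between frozen and fresh cells, 0.44, CCT7 had 0.40 and HSPD1 had -0.37, and these 3 were chosen after their values were seen. With 3 arrays against 3, an exact two-sided permutation test cannot go below p = 0.1, and over the 36 such tests the smallest adjusted value was 0.277. Which transcripts each probe binds was not tested.

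The 7 genes with a 3-unit run in their promoter had medians of -0.02 in frozen against fresh cells, -0.03 in replated against fresh cells and 0.04 in replated against frozen cells. Of these genes 0 were called by brightest probe in any of the comparisons, with 2, 0 and 2 at an unadjusted p under 0.05. Of all 18102 probes, 1.02%, 4.13% and 11.6% were called, and 17.2%, 20% and 28.9% had an unadjusted p under 0.05. At such shares, 0 called of 7 genes does not set them apart from the array as a whole. The 20 measured genes whose promoters held no 2-unit match had medians of -0.03, -0.07 and -0.05.

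Other genes of the folding network give the setting. Of all 10919 genes, 51 rose and 53 fell in frozen against fresh cells, and 266 rose and 235 fell in replated against fresh cells. In replated against frozen cells 721 rose and 601 fell. An unadjusted p under 0.05 was reached by 1856, 2329 and 3270 of all genes in the same order of comparisons. Of 27 further cytosolic chaperone genes, 1 was called lower in both comparisons with fresh cells, DNAJC2, a J protein of the ribosome. Its probe was detected on 0 of 3 replated, 0 of 3 frozen and 3 of 3 fresh arrays, so it passed the filter through fresh cells alone and no size is given for it. In replated against frozen cells 3 of the 27 fell: HSF2BP, which binds HSF2, by 0.29 (limma adjusted p = 0.0224), DNAJC9, a histone chaperone, by 0.27 (limma adjusted p = 0.0313), and HSPBP1, an exchange factor, by 0.38 (limma adjusted p = 0.0466). A dimmer probe of DNAJB12, a J protein of the endoplasmic reticulum membrane, rose by 0.48 in that comparison (limma adjusted p = 0.0173). The brightest probe of DNAJB12 differed by -0.09 there (limma adjusted p = 0.55) and its other measured probes by -0.17 and -0.03, so the rise rests on that dimmer probe. Of 15 genes of prefoldin and other TRiC partners, 0 were called in either comparison with fresh cells. In replated against frozen cells PFDN5, a prefoldin subunit, rose by 0.31 (limma adjusted p = 0.0135) and RUVBL1, an ATPase that works in complexes with HSP90, fell by 0.35 (limma adjusted p = 0.0152). A dimmer probe of each moved the same way, by 0.46 for PFDN5 (limma adjusted p = 0.00416) and by -0.36 for RUVBL1 (limma adjusted p = 0.016). Of the 11 actin and tubulin genes, the main clients of TRiC, 0 were called in any comparison by brightest probe in limma's model, with 3, 0 and 2 at an unadjusted p under 0.05. Of the 3 probes of ACTB, the cytoplasmic beta-actin gene, a dimmer one rose by 0.33 in replated against frozen cells (limma adjusted p = 0.0122), and the brightest differed by 0.20 (limma adjusted p = 0.0943). Of 11 genes of mitochondrial import and folding 0 were called, with 0, 3 and 4 at an unadjusted p under 0.05.

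The chaperones of the endoplasmic reticulum stood beside this as the nearest list of comparable function. Of its 16 genes, all measured, 0 were called in frozen against fresh cells, 6 fell in replated against fresh cells (median -0.25) and 9 fell in replated against frozen cells (median -0.27). Of all 10919 genes, 235 fell in replated against fresh cells (median -0.0013) and 601 in replated against frozen cells (median -0.0043). HYOU1, the HSP110 of the reticulum, had a log2 signal of 8.88, 8.91 and 8.75 on replated arrays, 9.25, 9.22 and 9.19 on frozen arrays and 9.32, 9.37 and 9.37 on fresh arrays. Its replated arrays lay below all others, whereas those of HSPH1 lay above the frozen arrays and overlapped the fresh ones. HYOU1 fell by 0.50 in replated against fresh cells (limma adjusted p = 0.00383), with its dimmer probe falling by 0.33 (limma adjusted p = 0.0425), and the genes next in order of p were SDF2L1, which fell by 0.41, DNAJC3 by 0.46 and CRELD2 by 0.33. In replated against frozen cells the order was DNAJB11, which fell by 0.45, DNAJC3 by 0.48, HYOU1 by 0.37 and SDF2L1 by 0.38. The heat shock and chaperonin genes had a median of -0.07 and 2 of 41 genes called in replated against fresh cells, where 266 of all 10919 genes rose and 235 fell. The difference between the lists was not tested.

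**Figure D4:**
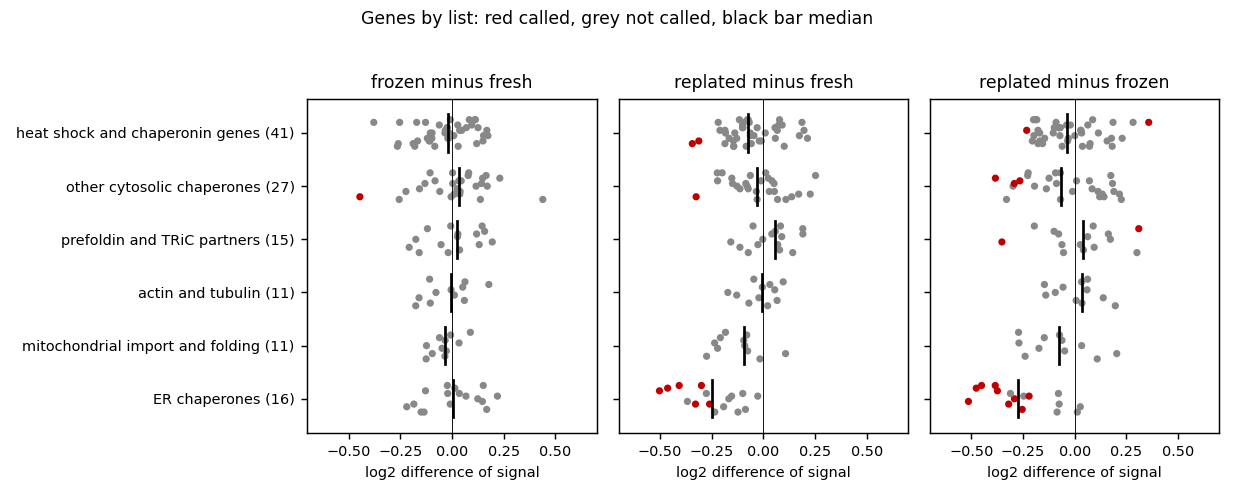
Log2 difference of signal for each measured gene (points, brightest probe) in the heat shock and chaperonin genes and 5 other lists, with the number of genes in brackets, called genes in red and the median as a black bar, in frozen minus fresh, replated minus fresh and replated minus frozen cells. The medians of the heat shock and chaperonin genes are -0.02, -0.07 and -0.04, and the endoplasmic reticulum list stands at -0.25 and -0.27 where replated cells are compared.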

How the data were processed

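RNA of 9 arrays (3 replated, 3 frozen, 3 fresh) was grouped by sample title. Per the labels' protocols, total RNA came from cell pellets (QIAGEN miRNeasy) and was turned into biotinylated cRNA (Ambion MessageAmp). Values of 48803 probes were deposited as linear intensity without normalization, per the file headers, and beside each stands a deposited detection score, a fraction between 0 and 1. The score never fell as the signal of its own array rose (0 falls), so it was read as 1 minus a detection p. The authors' second table holds intensity that they had corrected for background and quantile-normalized, as read from its values (sorted columns within 0.109% of the maximum), and it served as an alternative. The sources used here do not name the software that made the files. All columns of samples were used (0 left out).

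Signal was corrected and quantile-normalized with limma's neqc (limma 3.58.1, R 4.3.3), put on the log2 scale and fitted over 18102 probes with lmFit and eBayes. An offset of 16 was added to the corrected signal, which understates changes of dim probes. All adjusted p-values are Benjamini-Hochberg values over these probes, two-sided, with calls under 0.05 and 95% intervals. Gene names came from the platform annotation (27578 probes with 1 symbol), with HSPB11 matched through IFT25. Full values were given for called genes and for HSPA1B, HSPA8, HSP90AA1, HSP90AB1, HSPH1, DNAJB1, HSF1, HSPD1, HSPE1 and TCP1. From the other lists, except that of THP-1 markers, up to 4 genes called in a comparison were named, lowest p there first, and dimmer probes where they were called. The genes and lists were chosen with earlier results of these data known. The procedure was also run on simulated data, and how many changes it recovered is not given here. Arrays with the same replicate number did not deviate together (r from -0.0476 to 0.0473). No chip or date is given. Protein sequences were not used here.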

Additional observations from a re-analysis of the deposited data

How the results depend on the processing

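The fit was repeated under 20 alternative settings. Over 960 values of the 48 named probe and comparison pairs, 0 calls reversed; of 120 values of the 6 called pairs, 85 stayed called and 35 did not, and 16 values of other pairs became called. The dimmer CCT3 probe was called in all 20 settings in both comparisons, CCT5 in 14, HSPA9 in 12, STIP1 in 11 and STUB1 in 8. In frozen against fresh cells the count of called probes (1 of 57) was 6 with an offset of 50, 6 without background correction, 3 with scores above 0.99 on all arrays, 8 with a trended, robust prior and 1 to 2 without one array. In replated against fresh cells (2) it was 1 and 0 on the authors' values with pseudocounts of 16 and 1, 0 with only those states fitted, 5 with the trended prior and 0 to 1 without one array. In replated against frozen cells (3) it was 10 with an offset of 50, 9 without background correction, 5 with median centring, 8 with stricter scores, 19 with the trended prior and 1 to 3 without one array. The F test (3) gave 12 with an offset of 50, 12 without background correction, 1 with the pseudocount of 1, 5 without the filter, 12 with stricter scores, 21 with the trended prior and 1 to 2 without one array. With the replicate number as a block the counts were 1, 0, 1 and, for the F test, 1, with HSPA9 at an adjusted p of 0.0591. Median centring gave medians of -0.0113 (frozen against fresh) and -0.0675 (replated against frozen), and no filter 0.0006 (replated against frozen). Counting a gene by any probe gave 1 gene in frozen against fresh cells. Over all probes the counts ran from 49 to 826 (184 as reported), 244 to 1526 (747) and 995 to 3266 (2095). The trended prior called 4.56%, 8.43% and 18% of all probes, beside 8, 5 and 19 of these 57. The offset of 50 called 2.99%, 7.36% and 16.3% of all probes, beside 6, 3 and 10 of these 57. The cause of these moves was not tested. In groups of 3 arrays no test for a stray array was run.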
